A study of Mus musculus with 6 samples.

Results

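The guanylate-binding proteins (Gbp) are a family of large GTPases, and the 10 genes described here are Gbp2, Gbp2b, Gbp3, Gbp4, Gbp5, Gbp6, Gbp7, Gbp8, Gbp9 and Gbp10, taken by gene symbol from the 57462 genes listed for each tumour. RNA sequencing was available for 6 early-model tumours of HM1 cells, an ovarian cancer line of the mouse. In 3 tumours the HM1 cells carried a short hairpin RNA against the sialyltransferase ST3GAL3 (shST3GAL3, labelled as knockdown), and in 3 a control hairpin (shControl, labelled wild type). The sources used here do not give host age, strain, tumour time or the number of HM1 clones, and nothing in the labels says that the tumours of a group came from separate mice. The spread behind each p-value is thus that between these 6 samples, and it may be technical. Each value is TPM (transcript abundance scaled to a fixed total per library), a relative abundance corrected for gene length, so levels may be compared between genes, while the number of reads behind each value is unknown.

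Gbp genes are among the genes that interferon gamma, the cytokine of activated T and NK cells, induces most strongly in many cell types, tumour cells and macrophages included. Interferon gamma signals through the kinases JAK1 and JAK2 to gamma-activated sites in promoters, and IRF1, an induced transcription factor, binds interferon-stimulated response elements. The proteins assemble on the vacuoles and membranes of intracellular pathogens, often together with the immunity-related GTPases (IRG), and help to open them and to set off inflammasomes. Mouse GBP2, GBP2b (formerly named GBP1) and GBP5 carry a lipid anchor, a prenyl group added at a C-terminal CaaX motif. In the mouse the genes lie in clusters on chromosomes 3 and 5.

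All 10 Gbp genes had higher values in the shST3GAL3 tumours, by 1.33 to 1.78 times in the group means, and for all 10 the 3 shST3GAL3 values lay above the 3 shControl values. Such separation was found upwards for 15.7% and downwards for 7.76% of the 14207 genes tested, which had to reach 1 TPM in any 3 libraries. A log2 fold change above 0 was found for 10 of 10 members and for 52.7% of all genes. All members passed that filter in every library. The median log2 fold change of the members was 0.52 on the log2(TPM + 1) scale, against 0.013 over all genes tested. In a limma fit over all genes, 9 of the 10 had an unadjusted p under 0.05 with a higher shST3GAL3 mean, against 9.19% of all genes, and 0 with a lower mean, against 3.78%. After Benjamini-Hochberg adjustment over all genes 0 of 10 passed the threshold of 0.05 (limma adjusted p between 0.38 and 0.393), as for 0% of all genes in that direction, while 1 gene outside the family passed with a lower value, or 0.00704% of all genes. The count of 9 was 5 without shST3GAL3 2, where 7.62% of all genes had such a p, and also 5 without shControl 2, where the share was 4.47%. For a single gene, 3 against 3 tumours cannot give an exact two-sided permutation p below 0.1, which each of the 10 reached. In these bulk values, more cells of a type and more RNA per cell cannot be told apart.

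**Figure D1:**
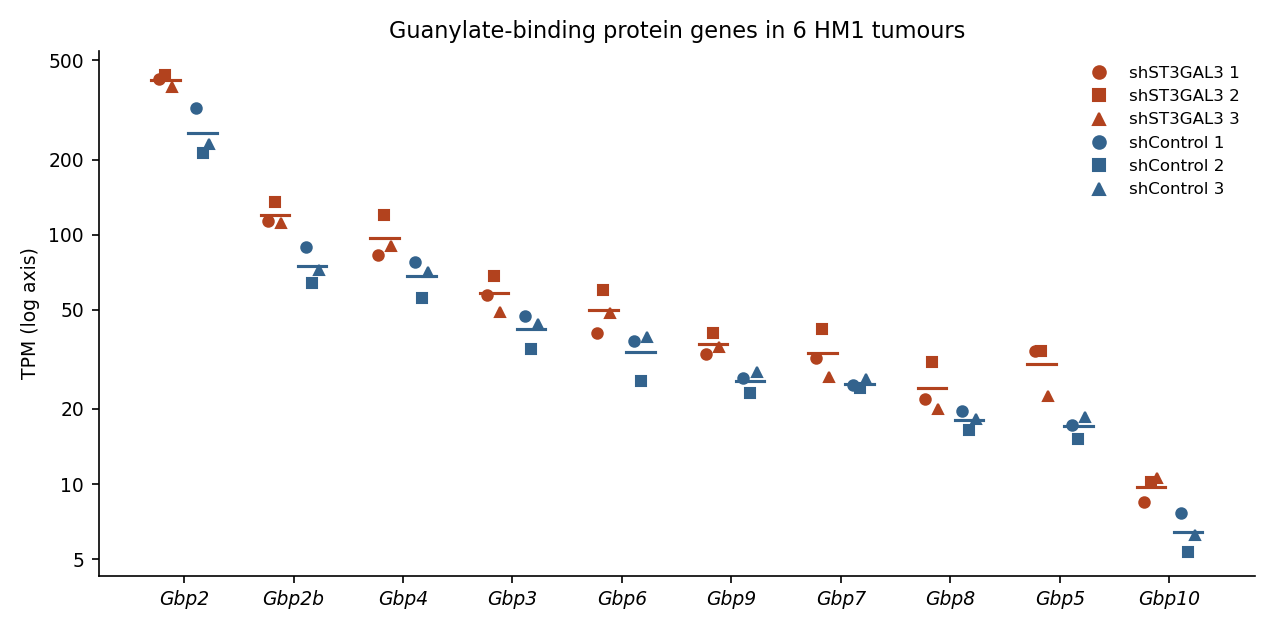
TPM of the 10 Gbp genes (log axis) in each tumour, ordered by shControl mean, with shST3GAL3 in red on the left of each pair and shControl in blue on the right. Points are single tumours and bars are group means; for every gene the 3 red points lie above the 3 blue points, from Gbp2 (mean 417 TPM in shST3GAL3 and 255 TPM in shControl tumours) to Gbp10 (mean 9.75 TPM in shST3GAL3 and 6.42 TPM in shControl tumours).

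St3gal3, the targeted gene, stood at 8.44, 6.77 and 7.49 TPM in shST3GAL3 1, 2 and 3, against 14.03, 13.84 and 13.79 TPM in shControl 1, 2 and 3. The 3 shST3GAL3 values lay well below the 3 shControl values, a separation found downwards for 7.76% of all genes tested. The log2 fold change was -0.8 (SE 0.11), and St3gal3 did not pass over all genes (limma adjusted p = 0.348). The 1 gene that passed with a lower value was thus another. Between 14142 and 14762 genes in the shST3GAL3 libraries, and between 13930 and 14091 in the shControl libraries, had a TPM of 1 or more. On the first principal component of all tested genes, which held 56.8% of the variance, shST3GAL3 1 stood apart from the other libraries. Keratin genes of the epithelial HM1 cells were abundant (Krt8 at 993 ± 251 TPM in shST3GAL3 and 1220 ± 69.8 TPM in shControl tumours, SD, n = 3 each), whereas Epcam and Krt7 stayed at or under 1.17 TPM in every library.

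Among the chromosome 3 genes, the members with a lipid anchor had the largest fold changes. Gbp2 (ENSMUSG00000028270), which coats pathogen vacuoles and bacterial membranes in mouse cells, was the most abundant Gbp transcript. Gbp2 stood at 422.08, 438.24 and 390.97 TPM in shST3GAL3 1, 2 and 3, against 321.35, 211.86 and 231.65 TPM in shControl 1, 2 and 3. The shST3GAL3 tumours were close to each other, and the lowest of them lay 21.7% above shControl 1, the highest control. The log2 fold change was 0.73 (SE 0.16). Gbp2b (ENSMUSG00000040264), a prenylated vacuole-targeting GTPase next to Gbp2, was the second in level. Gbp2b stood at 113.21, 135.61 and 110.89 TPM in shST3GAL3 1, 2 and 3, against 89.45, 63.9 and 72.18 TPM in shControl 1, 2 and 3. The groups were 24% apart at their nearest values, the widest such gap in the family, and the log2 fold change was 0.67 (SE 0.14). Gbp5 (ENSMUSG00000105504), linked to inflammasome assembly in macrophages, had the largest ratio. Gbp5 stood at 34.18, 34.01 and 22.56 TPM in shST3GAL3 1, 2 and 3, against 17.31, 15.12 and 18.62 TPM in shControl 1, 2 and 3. shST3GAL3 1 and 2 were at 200.9% and 199.9% of the shControl mean and shST3GAL3 3 lay lower, 21.2% above the highest control, with a log2 fold change of 0.78 (SE 0.18).

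The other chromosome 3 genes had smaller fold changes. Gbp3 (ENSMUSG00000028268) stood at 57.22, 68.44 and 48.9 TPM in shST3GAL3 1, 2 and 3, against 47.05, 34.71 and 43.64 TPM in shControl 1, 2 and 3. The groups did not overlap, but shST3GAL3 3 was only 3.93% above shControl 1 (log2 fold change 0.47, SE 0.16). Gbp7 (ENSMUSG00000040253), which in mouse macrophages brings oxidase and autophagy components to phagosomes, stood at 32.08, 41.67 and 26.88 TPM in shST3GAL3 1, 2 and 3, against 24.85, 24.24 and 26.45 TPM in shControl 1, 2 and 3. Here shST3GAL3 3 was at the control level, 1.63% above shControl 3, and the spread of the shST3GAL3 tumours (SD 7.5 TPM) exceeded that of the shControl tumours (SD 1.14 TPM). The log2 fold change was 0.38 (SE 0.16), and 0.22 without shST3GAL3 2.

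Promoter windows are shown because interferon-activated factors are known to act through short motifs in such windows. They are limited to the 5 chromosome 3 genes, since the chromosome 5 genes, which also had higher values, had no promoter entry. RefSeq promoter entries on GRCm38.p6 matched 5 of the 10 members by symbol, with 6 windows, Gbp3 having a second annotated start downstream. Each sequence below is the 250 bases before the annotated start, 5′ to 3′. Capitals mark matches to the core of the interferon-stimulated response element (GAAA, any 2 bases, then GAAA, on either strand) and to the gamma-activated site, TTCNNNGAA, which is the same on both strands.
Gbp2 promoter, chr3:142620413-142620662, + strand: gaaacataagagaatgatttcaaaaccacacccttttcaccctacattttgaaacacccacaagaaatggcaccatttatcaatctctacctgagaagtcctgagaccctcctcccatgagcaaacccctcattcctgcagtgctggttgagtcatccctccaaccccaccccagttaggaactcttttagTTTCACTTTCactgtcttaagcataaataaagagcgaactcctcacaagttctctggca
Gbp2b promoter, chr3:142594597-142594846, + strand: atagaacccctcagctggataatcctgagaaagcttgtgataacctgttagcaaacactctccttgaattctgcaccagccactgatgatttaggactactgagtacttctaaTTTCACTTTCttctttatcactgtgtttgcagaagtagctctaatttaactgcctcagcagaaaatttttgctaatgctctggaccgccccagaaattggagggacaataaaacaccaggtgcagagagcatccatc
Gbp5 promoter, chr3:142496684-142496933, + strand: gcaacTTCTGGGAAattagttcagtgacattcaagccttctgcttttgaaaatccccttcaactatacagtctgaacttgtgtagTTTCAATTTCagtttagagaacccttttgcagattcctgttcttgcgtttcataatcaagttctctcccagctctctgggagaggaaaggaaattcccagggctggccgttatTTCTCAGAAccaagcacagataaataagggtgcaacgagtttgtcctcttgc
Gbp3 promoter, chr3:142559794-142560043, + strand: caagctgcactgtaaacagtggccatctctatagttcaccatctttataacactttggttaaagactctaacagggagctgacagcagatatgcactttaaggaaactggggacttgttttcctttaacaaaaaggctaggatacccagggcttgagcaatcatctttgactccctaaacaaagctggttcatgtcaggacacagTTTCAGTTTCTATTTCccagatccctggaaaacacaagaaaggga
Gbp7 promoter, chr3:142530086-142530335, + strand: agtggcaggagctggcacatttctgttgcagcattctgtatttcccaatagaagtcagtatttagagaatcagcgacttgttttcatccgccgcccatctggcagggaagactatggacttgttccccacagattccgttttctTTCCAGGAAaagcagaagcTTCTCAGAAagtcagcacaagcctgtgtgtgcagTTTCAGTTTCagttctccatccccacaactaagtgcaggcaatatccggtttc

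The response element core was found in the window of every one of these 5 genes, always as its reverse complement (TTTC, any 2 bases, then TTTC), and in 5 of the 6 windows. It was present in 2.98% of 32851 promoter windows of the same length over all genes of the table. Its position differed between genes, with the first base at -59 in Gbp2, -137 in Gbp2b, -165 in Gbp5 and -53 in Gbp7, counted back from the annotated start. Gbp3 held a pair of overlapping matches, beginning at -45 and -39, before its first start and none before its second. The gamma-activated site was matched at -245 and -52 in Gbp5 and at -106 and -87 in Gbp7, against 7.02% of all windows with at least 1 match, and 0.332% of all windows held both motifs. Gbp5 had the largest and Gbp7 one of the smallest fold changes of the family, and both windows held both motifs. A match describes letters in a window, not a site that was measured as bound.

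**Figure D2:**
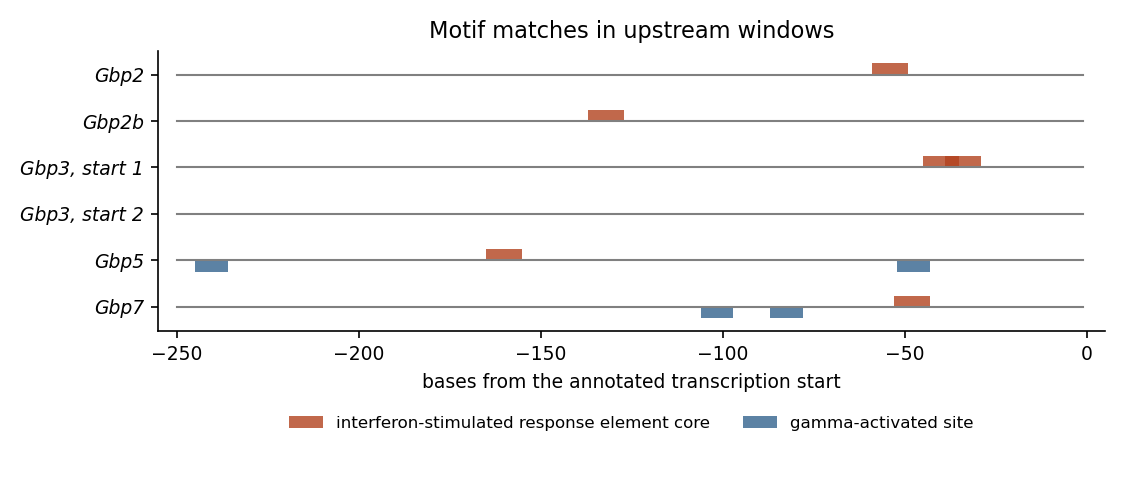
Positions of motif matches in the 250 bases before each annotated start of the chromosome 3 Gbp genes, in bases from the start (grey lines are the windows). Red boxes mark the interferon-stimulated response element core, in 5 of 6 windows, and blue boxes the gamma-activated site, found in the windows of Gbp5 and Gbp7.

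Of the chromosome 5 genes, Gbp4 (ENSMUSG00000079363), reported in mouse cells to restrain the interferon factor IRF7, was the most abundant. Gbp4 stood at 82.91, 119.52 and 89.68 TPM in shST3GAL3 1, 2 and 3, against 77.56, 55.72 and 70.84 TPM in shControl 1, 2 and 3. shST3GAL3 2 was high, and the other shST3GAL3 tumours were close to shControl 1 (nearest gap 6.9%, log2 fold change 0.51, SE 0.17). Gbp9 (ENSMUSG00000029298), a vacuole-targeting member, stood at 33.16, 40.37 and 35.44 TPM in shST3GAL3 1, 2 and 3, against 26.6, 23.09 and 28.11 TPM in shControl 1, 2 and 3. The tumours of each group lay close together, 18% apart at the nearest values, and the SE was the smallest in the family (log2 fold change 0.47, SE 0.11). Gbp8 (ENSMUSG00000034438) stood at 21.9, 30.79 and 20 TPM in shST3GAL3 1, 2 and 3, against 19.7, 16.53 and 18.19 TPM in shControl 1, 2 and 3. Only shST3GAL3 2 was far from the controls, shST3GAL3 3 being 1.52% above shControl 1. Gbp8 was the member without an unadjusted limma p under 0.05 (log2 fold change 0.38, SE 0.17, limma adjusted p = 0.393), and its log2 fold change was 0.20 without shST3GAL3 2.

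Gbp6 and Gbp10 are close copies, so the division of reads between them is uncertain. Of all 100-base windows along the Gbp6 transcript, 44.2% occurred unchanged in a Gbp10 transcript of GENCODE M21, and of those along the Gbp10 transcript 56.1% occurred in Gbp6. For the other 8 members the share found in any other Gbp gene was at most 3.81%, and for Gbp2, Gbp2b and Gbp5 it was 0%. Gbp6 (ENSMUSG00000104713), which associates with the Toxoplasma vacuole in mouse cells, stood at 40.42, 59.99 and 48.6 TPM in shST3GAL3 1, 2 and 3, against 37.4, 25.89 and 38.71 TPM in shControl 1, 2 and 3. The nearest values, shST3GAL3 1 and shControl 3, were 4.42% apart (log2 fold change 0.54, SE 0.20, and 0.36 without shControl 2). Gbp10 (ENSMUSG00000105096) stood at 8.48, 10.2 and 10.57 TPM in shST3GAL3 1, 2 and 3, against 7.65, 5.35 and 6.27 TPM in shControl 1, 2 and 3 (log2 fold change 0.54, SE 0.15). It was the least abundant member and the only one with its highest value in shST3GAL3 3. Added together, Gbp6 and Gbp10 reached 59.4 ± 10.6 TPM in shST3GAL3 and 40.4 ± 7.95 TPM in shControl tumours (SD, n = 3 each), a ratio of 1.47. The sum does not fully remove the question of division, since TPM depends on length and the transcripts differ (2604 and 3528 bases). Gbp11, a pseudogene in the RefSeq table and no member, stood between 1.08 and 1.69 TPM in shST3GAL3 and between 0.86 and 1.46 TPM in shControl tumours, with overlap.

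The order of the levels was nearly the same in both groups. Gbp2 stood first and clear of Gbp2b, with a mean 42.8 times that of Gbp10 in shST3GAL3 and 39.7 times in shControl tumours. Gbp2b and Gbp4 followed, and their ranges overlapped in each group, as did those of Gbp3 and Gbp6, which came next below a clear step. In shST3GAL3 tumours Gbp6 (lowest 40.42 TPM) was barely clear of Gbp9 (highest 40.37 TPM), and Gbp9, Gbp7, Gbp5 and Gbp8 overlapped each with the next. In shControl tumours Gbp6, Gbp9 and Gbp7 overlapped each with the next, Gbp8 and Gbp5 formed a lower pair, and Gbp10 was last and separate in both groups. Gbp5 was thus above Gbp8 in the shST3GAL3 means (30.2 and 24.2 TPM) and below it in the shControl means (17 and 18.1 TPM), in each case with overlapping ranges.

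Summed over the 10 genes, Gbp transcripts made up 845.64, 978.84 and 804.49 TPM in shST3GAL3 1, 2 and 3, against 668.92, 476.41 and 554.66 TPM in shControl 1, 2 and 3, a ratio of means of 1.55. Gbp2 alone gave 47.8 ± 2.67% of the family sum in shST3GAL3 and 44.8 ± 3.15% in shControl tumours (SD, n = 3 each). The composition of the family was similar between groups, the shares of 9 of the 10 genes overlapping. The exception was Gbp3, at 6.08% to 6.99% of the sum in shST3GAL3 and 7.03% to 7.87% in shControl tumours. Median log2 fold changes were 0.67 for the chromosome 3 genes and 0.51 for the chromosome 5 genes, and the ratio of their summed TPM overlapped, at 3.07 ± 0.404 in shST3GAL3 and 2.72 ± 0.273 in shControl tumours (SD, n = 3 each).

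Within each group most members ranked the tumours alike. shControl 2 had the lowest shControl value for all 10 genes. shST3GAL3 2 had the highest shST3GAL3 value for 8, the exceptions being Gbp5, marginally higher in shST3GAL3 1, and Gbp10, higher in shST3GAL3 3. The median over members, on the log2(TPM + 1) scale relative to the shControl mean, was 0.36, 0.77 and 0.42 in shST3GAL3 1, 2 and 3, against 0.17, -0.22 and 0.07 in shControl 1, 2 and 3. The lowest shST3GAL3 value was under 5% above the highest shControl value for 4 genes, Gbp3, Gbp6, Gbp7 and Gbp8. With the libraries rescaled by the median ratio, Gbp3, Gbp7 and Gbp8 overlapped between the groups, leaving 7 of 10 separated against 11.5% of all genes.

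**Figure D3:**
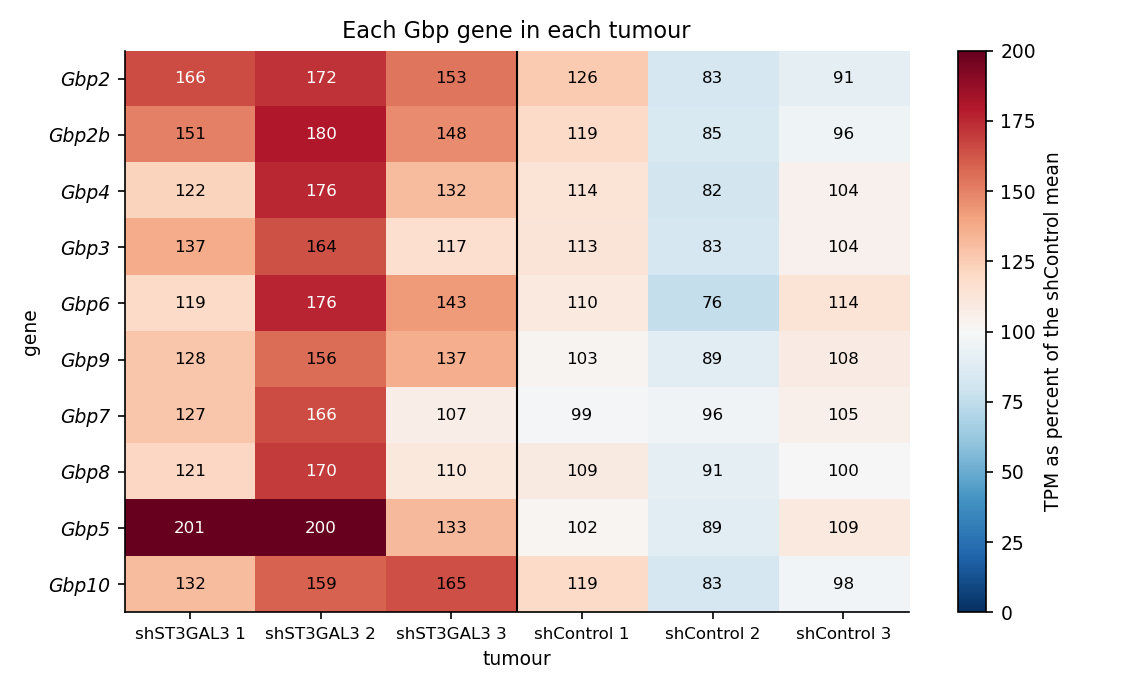
TPM of each Gbp gene (rows) in each tumour (columns, shST3GAL3 left of the black line, shControl right) as a percent of that gene's shControl mean, with red above and blue below 100. shST3GAL3 2 is high throughout, from 155.7 for Gbp9 to 199.9 for Gbp5, and shControl 2 is the lowest control in every row, from 76.1 for Gbp6 to 96.3 for Gbp7.

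The genes that carry the interferon gamma signal were read beside the family. Of 9 such genes, 7 had a positive log2 fold change, beside 52.7% of all genes tested. For 6 the unadjusted limma p was under 0.05 with a higher value, beside 9.19% of all genes. Over all genes 0 passed, and the median log2 fold change was 0.48. Irf1 stood at 276 ± 35.8 TPM in shST3GAL3 and 185 ± 22.4 TPM in shControl tumours (log2 fold change 0.57, SE 0.12), and Socs1, a feedback inhibitor, at 10.1 ± 0.849 TPM in shST3GAL3 and 5.54 ± 0.622 TPM in shControl tumours (0.77, SE 0.12; SD, n = 3 each). For these genes and the receptor gene Ifngr1 (0.51, SE 0.17) the groups did not overlap. Ifng itself was low, at 4.67, 3.93 and 2.06 TPM in shST3GAL3 1, 2 and 3, against 2.77, 1.77 and 2 TPM in shControl 1, 2 and 3, and shST3GAL3 3 lay within the control range. Jak2 (-0.06, SE 0.08) and the phosphatase gene Ptpn2 (-0.12, SE 0.08) had negative log2 fold changes. For Ptpn2 all shST3GAL3 values lay below all shControl values, as for 7.76% of all genes tested. The count of 6 was 3 without shControl 2, where 4.47% of all genes were higher at an unadjusted limma p under 0.05. The median was 0.30 without shST3GAL3 1.

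For the immunity-related GTPases, which act with the Gbp proteins at pathogen vacuoles, the median was 0.57 on the log2 scale. Of 11 listed genes 10 were tested, and 9 had a positive log2 fold change, beside 52.7% of all genes. An unadjusted limma p under 0.05 with a higher value was found for 6, beside 9.19% of all genes, and 0 passed over all genes. Irgm2, a regulatory member, stood at 86.4 ± 9.54 TPM in shST3GAL3 and 53.9 ± 6.88 TPM in shControl tumours (0.67, SE 0.12; SD, n = 3 each). Gm12250, which encodes IRGB10, a partner of Gbp proteins in the lysis of bacteria, stood at 35.1 ± 4.34 TPM in shST3GAL3 and 21.5 ± 1.04 TPM in shControl tumours (0.68, SE 0.11; SD, n = 3 each). The near-identical pair Tgtp2 (0.69, SE 0.12) and Tgtp1 (-0.46, SE 0.33) differed in sign, and their division of reads is uncertain. Relative to the shControl mean, this list had medians of 0.51, 0.78 and 0.45 in shST3GAL3 1, 2 and 3, against 0.16, -0.21 and 0.05 in shControl 1, 2 and 3, so the highest and the lowest tumour were those of the Gbp genes.

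**Figure D4:**
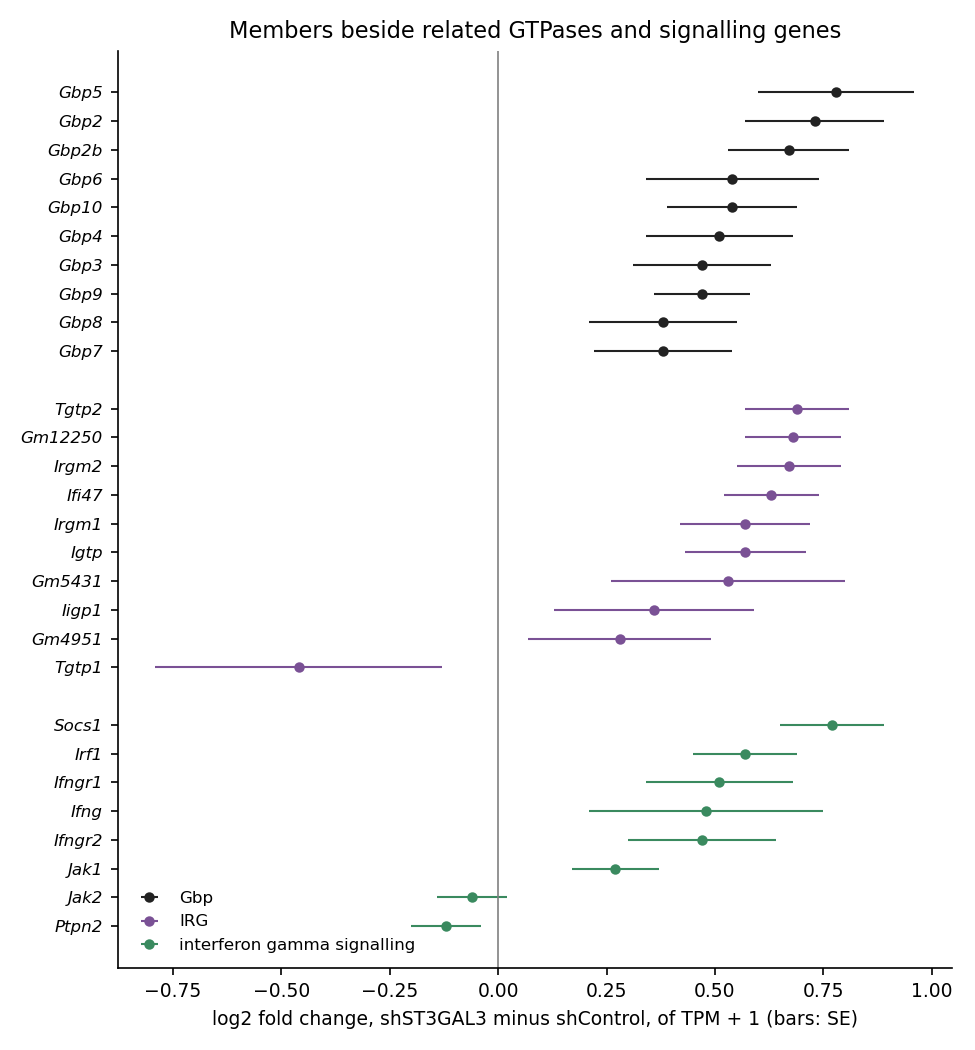
Log2 fold changes, shST3GAL3 minus shControl, on the log2(TPM + 1) scale with limma standard errors as bars, for the Gbp genes (top), the immunity-related GTPases (middle) and 8 of the 9 interferon gamma signalling genes (bottom). The 10 Gbp genes lie between 0.38 and 0.78, while Tgtp1, Jak2 and Ptpn2 lie below 0.

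Genes of the steps around the Gbp proteins had smaller median log2 fold changes. For type I interferon signalling the median was 0.30 on the log2 scale. Of 6 genes, 3, led by Irf9 (0.40, SE 0.11), a subunit of the factor that binds response elements, were higher at an unadjusted limma p under 0.05. The share over all genes tested was 9.19%. The type I interferon count was 1 without shControl 1 or shControl 2, where the shares of all genes were 5.82% and 4.47%. Of the ATG8 conjugation genes, whose products direct IRG and Gbp proteins to vacuoles in mouse cells, 3 of 10 had such a p, with a median of 0.15. Atg3, which attaches ATG8 proteins to lipid, stood at 22.2 ± 1.41 TPM in shST3GAL3 and 17 ± 1.32 TPM in shControl tumours (0.37, SE 0.10; SD, n = 3 each). The count of 3 was 1 without any 1 shControl library, where 4.47% to 5.82% of all genes had such a p. It was also 1 with median-ratio scaling or quantile normalization, where the shares of all genes were 6.62% and 6.19%. Among 8 tested inflammasome and pyroptosis genes 0 had such a p in limma and the median was 0.23, against 0.05 without shST3GAL3 1, 0.13 without shControl 2 and 0.15 without shControl 3. Casp4, which encodes caspase-11, stood at 24.5 ± 4.57 TPM in shST3GAL3 and 20.9 ± 3.50 TPM in shControl tumours, and Gsdmd, the pore protein, at 107 ± 0.578 TPM in shST3GAL3 and 106 ± 2.33 TPM in shControl tumours (SD, n = 3 each). Aim2, a DNA sensor, had a log2 fold change of -0.38 (SE 0.18). The 5 genes of prenylation and CaaX processing, which attach the anchor of GBP2, GBP2b and GBP5, had 0 with such a p in limma and a median of -0.05. The other large GTPases had a median of 0.16 over 8 genes. Of these, 1, the antiviral gene Mx1 (0.50, SE 0.20), had such a p, beside 9.19% of all genes. That count was 0 without shST3GAL3 1, shST3GAL3 2, shControl 1 or shControl 2, where 4.47% to 8.43% of all genes had such a p. The median was -0.04 without shControl 2, 0.03 without shST3GAL3 3 and 0.31 without shControl 3. Positive log2 fold changes were found for 6 of 6 type I interferon, 8 of 10 ATG8 conjugation and 7 of 8 inflammasome genes. For prenylation it was 2 of 5 and for other large GTPases 5 of 8, beside 52.7% of all genes tested. The inflammasome values ran from -0.38 to 0.47.

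The genes outside the family whose profile over the 6 libraries lay closest to the mean Gbp profile were sought among all tested genes, by the root mean square difference of centred log2(TPM + 1) values. The 5 nearest named genes were Igtp (0.02), Irgm1 (0.043), Tap1 (0.077), Irf1 (0.083) and Irgm2 (0.083). Igtp and Irgm1 encode regulatory IRG proteins, and Tap1 encodes a subunit of the peptide transporter of MHC class I. In the same promoter search the response element core was matched for Igtp, Irgm1 and Irgm2, against 2.98% of all windows. It was matched neither for Tap1 nor in either window of Irf1. The gamma-activated site was matched for Igtp, Irgm2 and 1 window of Irf1, against 7.02% of all windows. Igtp stood at 211.32, 263.35 and 204.27 TPM in shST3GAL3 1, 2 and 3, against 171.06, 130.66 and 153.46 TPM in shControl 1, 2 and 3. Its highest and lowest tumour were those of the Gbp sum, which follows from its choice by this distance. Members themselves ranged from 0.068 for Gbp3 to 0.201 for Gbp5, which had the largest fold change and was as high in shST3GAL3 1 as in shST3GAL3 2. As the values were centred but not scaled, the distance holds the size of a change as well as its shape. Ifng stood at 0.253 from the same profile.

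Most markers of the other cell types in these tumours also had higher values in the shST3GAL3 tumours, with 0 passing over all genes in limma. An unadjusted limma p under 0.05 with a higher value was found for 5 of 5 fibroblast, 4 of 5 endothelial and 3 of 6 macrophage markers. For T cell markers it was found for 2 of 6, for dendritic cell markers for 2 of 4, and for NK cell and neutrophil markers for 0 of 3 each. The share over all genes tested was 9.19%. Macrophage markers, with positive log2 fold changes for 6 of 6, summed to between 1020 and 1820 TPM in shST3GAL3 and between 861 and 1010 TPM in shControl tumours. T cell markers, positive for 6 of 6, summed to between 64.3 and 132 TPM in shST3GAL3 and between 52 and 72.1 TPM in shControl tumours, which overlapped. Fibroblast markers, positive for 5 of 5, summed to between 769 and 4250 TPM in shST3GAL3 and between 413 and 676 TPM in shControl tumours, and endothelial markers, positive for 5 of 5, to between 78 and 195 TPM in shST3GAL3 and between 41 and 55.4 TPM in shControl tumours. Dendritic cell markers, positive for 4 of 4, summed to between 45.3 and 61.4 TPM in shST3GAL3 and between 30.5 and 40.7 TPM in shControl tumours. NK cell markers, positive for 2 of 3, overlapped, at 8.32 to 12.5 TPM in shST3GAL3 and 8.7 to 10 TPM in shControl tumours. Neutrophil markers, positive for 2 of 3, overlapped too, at 45.5 to 281 TPM in shST3GAL3 and 57.1 to 111 TPM in shControl tumours. B cell markers were near 0, with a list sum of 0.05 to 3.2 TPM in shST3GAL3 and 0 to 0.39 TPM in shControl tumours. The 3 tested keratin genes of the tumour cells had negative log2 fold changes, the summed list standing between 1760 and 3190 TPM in shST3GAL3 and between 3190 and 3670 TPM in shControl tumours. The early response genes of tissue handling, positive for 7 of 7, summed to between 419 and 634 TPM in shST3GAL3 and between 354 and 372 TPM in shControl tumours.

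The macrophage, T cell, fibroblast and endothelial medians were highest in shST3GAL3 1, and the dendritic cell median in shST3GAL3 2, as for the Gbp genes. The dendritic cell median was 0.48, 0.64 and 0.12 in shST3GAL3 1, 2 and 3, against 0.03, 0.09 and -0.14 in shControl 1, 2 and 3. Of the shST3GAL3 tumours the Gbp median was lowest in shST3GAL3 1, whereas the Gbp sum was lowest in shST3GAL3 3, as were 6 of the 10 genes. The macrophage median was 1.02, 0.55 and 0.17 in shST3GAL3 1, 2 and 3, against 0.10, 0.03 and -0.18 in shControl 1, 2 and 3. The T cell median was 1.02, 0.92 and 0.11 in shST3GAL3 1, 2 and 3, against 0.19, -0.25 and -0.07 in shControl 1, 2 and 3, and it ranked the shControl tumours as the Gbp median did. Without shST3GAL3 1, the library that stood apart, the median log2 fold change of the Gbp genes was 0.62. Of the 10 genes, 8 then had an unadjusted limma p under 0.05 with a higher value, against 8.43% of all genes. All 10 lay above the controls, against 21.1% of all genes, but leaving out a library cannot undo such a separation. The part of cell content in the Gbp values was not tested.

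**Figure D5:**
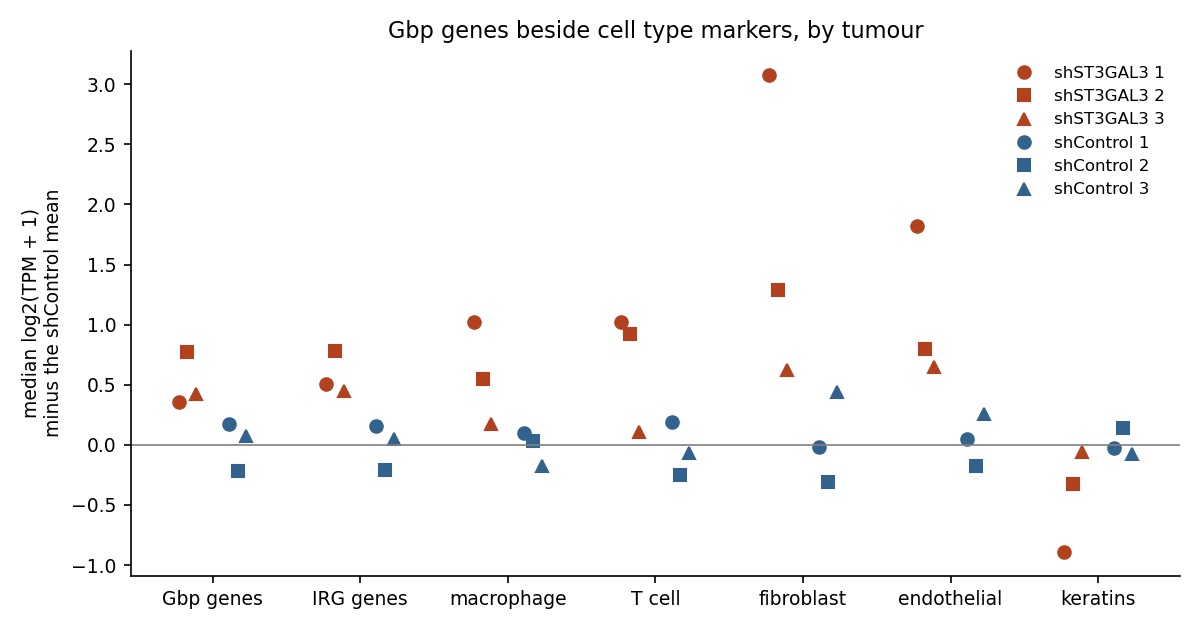
Median log2(TPM + 1) of each gene list relative to its shControl mean, by tumour, with shST3GAL3 in red left of shControl in blue. The Gbp and IRG genes are highest in shST3GAL3 2 (0.77 and 0.78), whereas the macrophage, T cell, fibroblast and endothelial markers are highest in shST3GAL3 1 and the keratins are lowest there (-0.89).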

How the data were processed

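Gene expression was measured in 6 tumours, 3 shST3GAL3 and 3 shControl, grouped by their titles. The deposited values are TPM, given per gene with 2 decimals and summing to between 999999 and 1000001 in each library. The gene lengths come in another column of the deposited files. Per the submitters' processing notes, fastp, HISAT, RSEM and the build GRCm39 were used; the sources used here give no versions, annotation release or strand setting. TPM is relative to each library's total and keeps no depth, so no counting interval was given.

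The limma package 3.58.1 (R 4.3.3) was fitted to log2(TPM + 1) with its trend option and the group as the one term. Tested were the 14207 genes that reached 1 TPM in any 3 libraries, with Benjamini-Hochberg adjustment over all of them and a threshold of 0.05. Fold changes on this scale understate low genes. TPM values carry the SD (n = 3), fold changes the moderated SE from limma. The fit was also run on simulated data with independent noise and planted changes larger than that of any member. That run does not bear on changes of the size seen here. The members and lists were chosen with earlier results of these data known. Named genes were the 10 members, St3gal3, up to 4 genes of each list with the smallest p, and the 5 genes nearest to the mean profile, predicted genes and pseudogenes left out. Ifng, Jak2, Ptpn2, Tgtp1, Gsdmd, Krt8, Epcam, Krt7 and Gbp11 were named after their values were seen. Some items of the lists are not reported here by name. Promoters came from RefSeq (GRCm38.p6) and transcripts from GENCODE M21, another build than that of the files, and were used for sequence only. Alternatives were another pseudocount, other filters, the replicate block, 3 scalings, library weights and leaving out each library; their use on the pathway lists and the summed TPM was chosen after seeing the data.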

Additional observations from a re-analysis of the deposited data

How the results depend on the processing

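The 10 Gbp log2 fold changes were positive under all 14 alternatives. As the groups were separated for every member, only the 3 scalings could have changed a sign, so the other alternatives do not test it. In limma 0 members passed the adjusted threshold in any alternative. Without 1 library Gbp8 ranged from 0.20 to 0.50 and Gbp7 from 0.22 to 0.52, both lowest without shST3GAL3 2. The replicate block rests on numbers in the titles that are not said to pair tumours. It left the Gbp median at 0.52, which a balanced block cannot change. With it 6 members were higher at an unadjusted limma p under 0.05, beside 9.73% of all genes. Same-numbered tumours did not deviate together (correlations 0.01, -0.08 and 0.04). With library weights the smallest adjusted p was 0.138 and 10 members were higher at an unadjusted p under 0.05, beside 12.9% of all genes. Without 1 library, that count lay between 5 and 9, beside 4.47% to 12.6% of all genes. All 10 members stayed separated, beside 20.3% to 22.9% of all genes, but leaving out a library cannot undo a separation. The median lay between 0.38 and 0.62 and the ratio of summed TPM between 1.43 and 1.7. Genes with an unadjusted p under 0.05 were 70.8% higher ones, against 51.2% under median-ratio scaling, 47.8% under quantile normalization and 62.3% after rescaling to a total that leaves out mitochondrial, immunoglobulin and ribosomal protein genes; the median of all genes moved from 0.013 to between -0.046 and -0.011. For the lists without 1 library, counts ranged from 3 to 7 (interferon gamma signalling), 1 to 3 (type I interferon), 0 to 1 (inflammasome), 1 to 3 (ATG8 conjugation) and 0 to 1 (other large GTPases), beside the 4.47% to 12.6% of all genes given above. The interferon gamma signalling median ranged from 0.30 to 0.64, the inflammasome median from 0.05 to 0.32, the prenylation median from -0.06 to 0 and the median of other large GTPases from -0.04 to 0.31. The ATG8 count was 1 with median-ratio scaling or quantile normalization, the inflammasome count 1 with library weights, and the count of other large GTPases 0 without the filter and with each of the 3 scalings. The shares of all genes higher at an unadjusted limma p under 0.05 were 6.62% (median-ratio), 6.19% (quantile), 7.85% (rescaled), 12.9% (library weights) and 5.9% (no filter). The cause was not tested. Depth limits the precision of low genes such as Ifng, but cannot be read from TPM.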
